A study of Mus musculus with 30 samples.

Results

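The brain microRNA profile of mice deficient in Ftsj1 was set against that of wild-type mice, over all 2194 named features of the brain table, which are 2194 of the 2194 features that the study lists for each of its 5 organs. The 6 brain libraries, of 30 in the series, came from 3 mice with the genotype Ftsj1_DF and 3 with the genotype WT, all male and 4 months old, which had free access to food and water and received no treatment. Per the labels, 2 of the mice (1 of each genotype) were brothers, and the other 4 (2 of each genotype) were brothers of each other. All 6 brain libraries carried batch number 1, and neither the strain nor the Ftsj1 allele is given in the sources used here. RNA came from pulverised whole brain, so every cell type of the organ contributed, and fewer cells of a type cannot be told apart from less RNA per cell.

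Ftsj1 encodes an enzyme that adds methyl groups to the ribose of tRNA, and loss of its human counterpart is a known cause of X-linked intellectual disability. MicroRNAs are short RNAs cut from hairpin precursors. Bases 2 to 8 of the mature strand, the seed, pair with target mRNAs, so microRNAs with a common seed form a family with overlapping targets. The comparison asks which microRNAs differ in level between the genotypes in brain. Small RNA tables hold no count of Ftsj1 mRNA, which leaves the genotype labels without a check.

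The microRNAs that give the brain its profile and the families described below are shown as RefSeq (GRCm38.p6) mature strands, 5′ to 3′, with the seed in capitals. The first 4 lead the profile or mark neurons and oligodendrocytes.

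miR-9-5p: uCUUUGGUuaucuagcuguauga

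miR-128-3p: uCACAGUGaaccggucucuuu

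miR-219a-5p: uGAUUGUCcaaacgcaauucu

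miR-26a-5p: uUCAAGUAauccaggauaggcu

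The let-7 strands chosen here and miR-98 share the seed GAGGUAG and differ in the bases after it, and let-7j departs at the last base of the seed.

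let-7a-5p: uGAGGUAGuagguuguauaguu

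let-7c-5p: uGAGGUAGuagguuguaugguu

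let-7g-5p: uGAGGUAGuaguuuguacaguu

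let-7i-5p: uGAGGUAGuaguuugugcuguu

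miR-98-5p: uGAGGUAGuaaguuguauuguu

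let-7k: uGAGGUAGgagguugugug

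let-7j: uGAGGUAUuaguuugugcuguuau

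The miR-125, miR-183 and miR-200 groups are shown because, like let-7, they have at least 3 members, all negative in the genotype contrast, and a median below -0.40.

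miR-125a-5p: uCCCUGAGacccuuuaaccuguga

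miR-125b-5p: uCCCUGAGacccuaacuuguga

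miR-183-5p: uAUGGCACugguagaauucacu

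miR-182-5p: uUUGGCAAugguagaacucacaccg

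miR-96-5p: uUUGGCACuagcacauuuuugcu

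miR-200b-3p: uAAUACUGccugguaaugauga

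miR-200a-3p: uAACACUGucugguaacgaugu

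The authors' deposited table gives, per precursor, 1 mean over the 6 libraries of reads divided by a size factor (the mean normalized count), and a log2 fold change with its standard error and p from DESeq2. It does not say which genotype is the numerator, so fold changes keep their deposited sign. Libraries of the numerator genotype, 3 in number, form the positive side, and those of the other genotype the negative side. Of the 2194 features 1030 had reads, namely 842 named as microRNAs, 187 provisional Gm genes and the small nucleolar RNA Snord43, and 1164 were listed at 0. Means summed to 16119000 normalized counts, 519 features had a mean of at least 10 and 213 a mean of at least 1000. Size factors recovered from the table, which stand for relative depth since no total per library is given, were 1.92, 1.21 and 0.730 on the positive side and 1.14, 0.749 and 0.740 on the negative side. For precursors above a mean of 110 there is no value per library, and the precision is that of the deposited standard error, with a median of 0.27 among the 213 features above 1000. A design with 3 mice per genotype cannot give a two-sided exact permutation p below 0.1.

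Brain microRNAs were spread over many precursors. The 12 most abundant made up 50% of all normalized counts and 63 made up 90%, whereas 3 to 7 precursors made up 50% of the total in each of the other 4 organs. Mir26a-1, of a family found in most tissues, led with 6.21%, ahead of Mir9-2 (6.16%) and Mir128-1 (6.12%). Mirlet7g and Mir9-3 followed with 5.71% and 5.69%. A read covers about a whole mature strand, so these shares are not divided by precursor length. The leading precursor of the other organs, Mir143 in heart, kidney and spleen and Mir122 in liver, took 19.1% to 26.2% of its organ. In brain Mir143, which vascular smooth muscle expresses, made up 3.22%, and Mir122, the hepatocyte microRNA, 0.0242%. Tables were normalized separately for each organ, so these shares are a description.

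**Figure D1:**
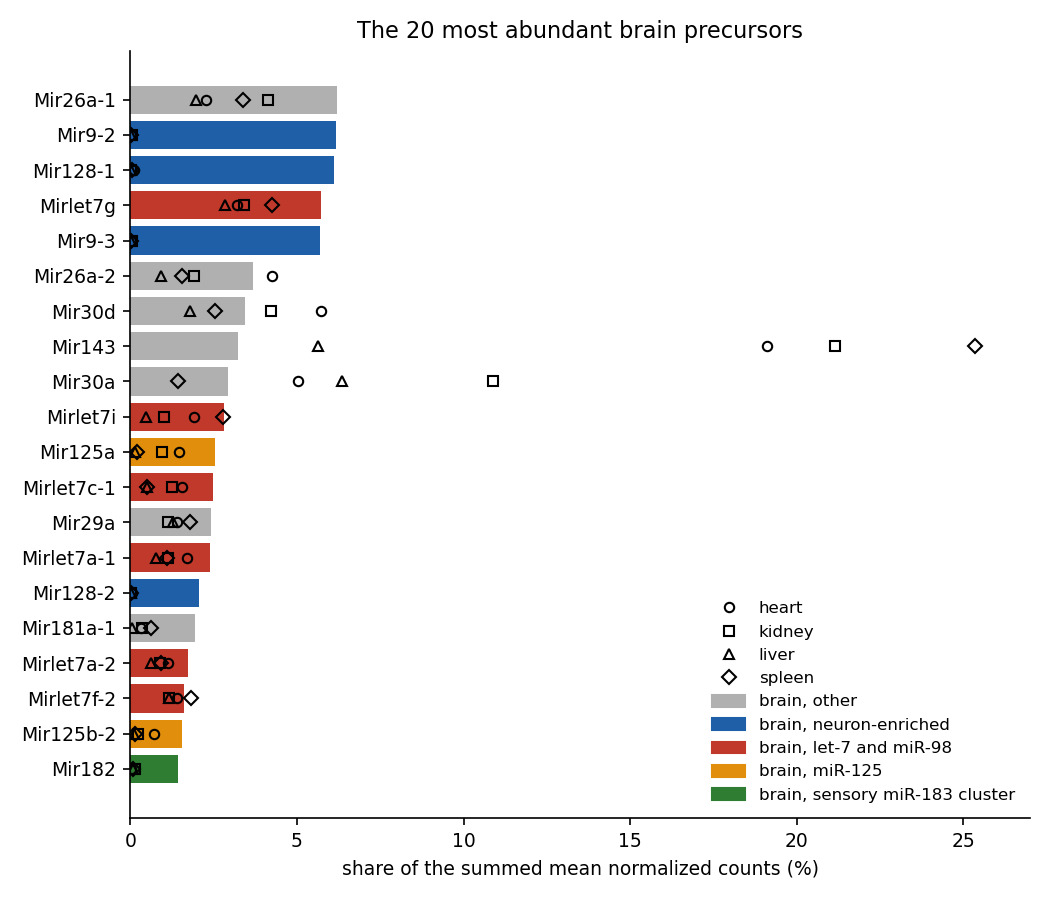
Share of the summed mean normalized counts (%, x axis) of the 20 most abundant brain precursors (bars, coloured by group) with the share of the same precursor in heart, kidney, liver and spleen (open symbols). The Mir9 and Mir128 bars stand far beyond the symbols of all other organs, while the let-7 bars lie close to them and Mir143 is lower in brain than in every other organ.

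Neuronal precursors defined the tissue. The 18 measured members of a neuron-enriched list made up 22.5% of the brain total, 63.7 times the share in the next organ, and all 18 had their highest share in brain. Mir9-2 and Mir9-3, whose product acts in neural progenitors and neurons, were each 148 times above the next organ, and Mir128-1 was 59.8 times above it. The 3 copies of miR-124, the classic neuronal microRNA, are named Mir124a in the table. Mir124a-3 gave 0.566%, Mir124a-2 0.317% and Mir124a-1 0.0652%, which is 312 to 363 times the next organ. The third copy of miR-9, Mir9-1, was listed at 0.

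Other brain cells were visible at lower level. Mir219a-2, which drives oligodendrocyte differentiation, made up 0.381%, 309 times the next organ. Its copy Mir219a-1 stood at 59.3 mean normalized counts and Mir338, the second oligodendrocyte microRNA, at 7.55. A list of choroid plexus and ciliated ependyma precursors made up 0.434%, nearly all of it Mir204 at 0.397%. Markers of other tissues were low. Leukocyte and microglia precursors made up 0.175% (3.20% in spleen), striated muscle precursors 0.0496% (11.6% in heart), liver and gut precursors 0.103% (33.8% in liver) and red cell precursors 0.00715%, nearly all of it Mir144. The red cell precursor Mir451a was listed at 0, as were Mir142 of leukocytes and the widely expressed Mir30e and Mir24-1, so a 0 here is not read as a low level. Neither is the low mean of Mir338.

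Of 194 precursors with a share above 0.01%, 129 were highest in brain and together made up 72.1% of the total. A margin of more than 10 times over the next organ was found for 65, which made up 31.7%, and of more than 100 times for 19. Mir448, which lies within a serotonin receptor gene, had the widest margin, 395 times, at a share of 0.0246%. Mir1298, of the same host gene, stood 331 times above the next organ. The large imprinted Dlk1-Dio3 cluster, whose microRNAs are expressed from the maternal chromosome, gave 49 measured precursors, 48 of them highest in brain, and 4.93% of the total, 42.8 times the next organ. Of the 65 precursors with the margin of 10, 30 had a positive and 35 a negative log2 fold change between genotypes, with a median of -0.03 in the authors' deposited table.

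No feature differed between the genotypes after adjustment. By DESeq2 in the authors' deposited table, none of 1030 features (0%) had an adjusted p under 0.05, and the smallest adjusted p was 0.989. At an unadjusted p under 0.05 there were 23 (2.23%), of which 12 were positive (1.17%) and 11 negative (1.07%). Fold changes of abundant features were small: over the 213 features above a mean of 1000 they ran from -0.75 to 0.89 with a median of -0.03 in the authors' deposited table. Among these, 17 lay below -0.50 and 5 above 0.50. The deposited scaling leaves the sides unequal in summed level, by a log2 of -0.20 for positive over negative. Rescaled to equal sums, 34 features had an unadjusted p under 0.05, of which 29 were positive and 5 negative, and again 0 passed adjustment. Here and below, a p after rescaling is a normal p of the shifted fold change over its deposited standard error. The shift is the same for every feature. Of the 318 features with a mean of at least 100, 161 were negative as deposited and 76 after rescaling.

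The most abundant precursors were mostly negative in the contrast. Of the 33 precursors with a mean of at least 100000, which made up 76.9% of the total, 26 were negative and 7 positive, and the authors' deposited table puts their median log2 fold change at -0.35. Between 10000 and 100000 the median over 80 features was -0.04, between 1000 and 10000 it was 0.05 over 100 features, and between 100 and 1000 it was 0.06 over 105. Lower down it was 0.01 over 201 features from 10 to 100 and 0.06 over 281 from 1 to 10. For the 230 features under 1 it was -0.52, with a median standard error of 4.06. The most abundant class held 4 of the 23 unadjusted calls, all negative, which is 12.1% of its members. Let-7 and miR-125 precursors were 12 of the 33, and all 12 were negative with a median of -0.63. The other 21 were 14 negative and 7 positive with a median of -0.04. After rescaling to equal sums, 19 of the 33 were negative.

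**Figure D2:**
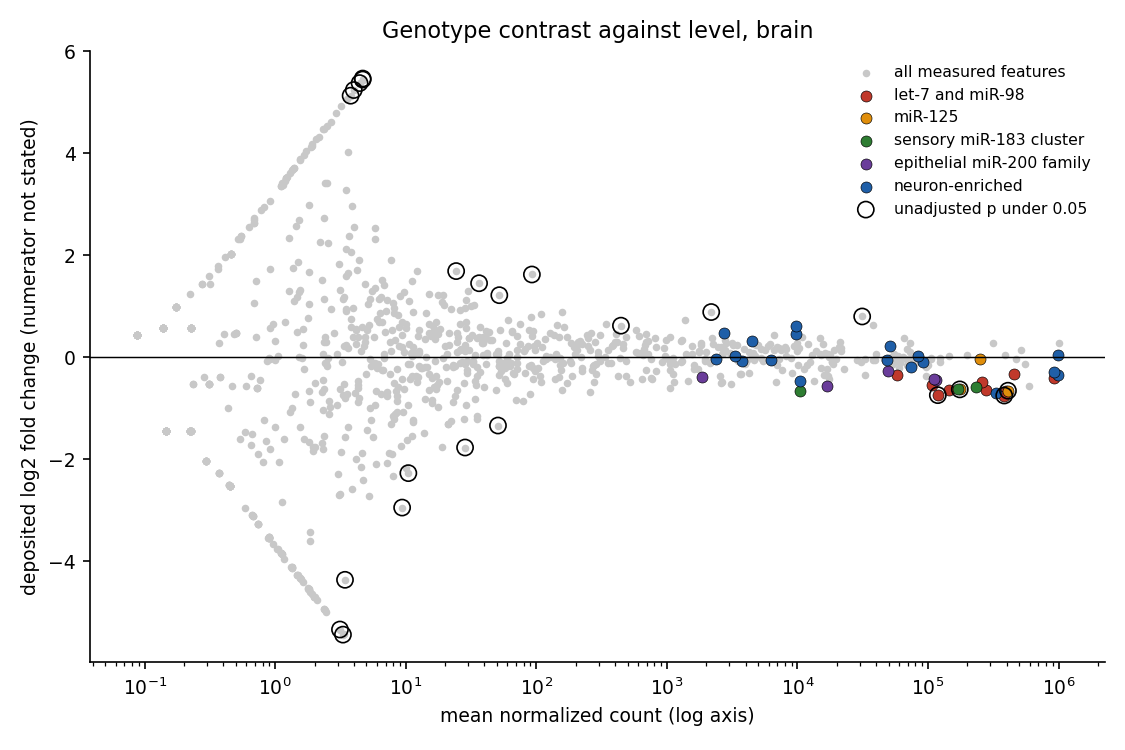
Deposited log2 fold change (y axis, numerator not stated) against the mean normalized count (x axis, log axis) of the 1030 measured features, with 5 groups coloured and features with an unadjusted p under 0.05 ringed. The let-7 and miR-98 points lie together below 0 at the right, neuron-enriched points lie on both sides of 0, and the spread widens towards low means.

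Let-7 microRNAs restrain growth genes and accumulate as neurons mature. With miR-98 they made up 19.3% of the brain total, above the 13.1% of heart, the next organ. All 10 measured precursors had a negative log2 fold change in the authors' deposited table, from -0.75 to -0.33, with a median of -0.59, against -0.01 over the 318 features with a mean of at least 100. Mirlet7f-1 and Mirlet7e were listed at 0.

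Mirlet7a-1 had the lowest value of the family, -0.75 (standard error 0.36, 95% interval -1.45 to -0.05, DESeq2 unadjusted p = 0.0366 and adjusted p = 0.989 by the authors' deposited table). Its mean and fold change correspond to 285773 normalized counts on the positive and 480668 on the negative side. Mirlet7c-2 was at -0.74 (standard error 0.37, unadjusted p = 0.0459) in the authors' deposited table. Mirlet7g, the most abundant member, was at -0.42 (standard error 0.27, interval -0.94 to 0.11), or 789083 against 1053110 normalized counts. Mirlet7i, at -0.33 (standard error 0.24), and Mir98, at -0.35 (standard error 0.26), were the members nearest to 0 in the authors' deposited table. All 10 kept a negative sign after rescaling to equal sums, from -0.55 to -0.13, and then no member had an unadjusted p under 0.05 (0.123 for Mirlet7a-1).

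The seed GAGGUAG was matched to 11 measured precursors through a RefSeq strand. Together they made up 17.6% of the total, and all 11 were negative. They include 2 low precursors outside the list, Mir7k, which encodes let-7k, and Mir1961. Mirlet7a-2, a further copy of let-7a with 1.72% of the total and a value of -0.64, was matched through its 3p strand only. It is therefore not among the 11. Mir7k is low enough to show its libraries. Positive libraries gave 27, 36 and 32 reads and negative ones 73, 59 and 55, each side in order of falling size factor. These are 14.0, 29.7 and 43.8 against 64.2, 78.8 and 74.3 normalized counts, so every library of the negative side was above every library of the positive side. The side means of Mir7k differed 2.48-fold, and the deposited log2 fold change was -1.34 (standard error 0.58, unadjusted p = 0.0211, adjusted p = 0.989). Reads of let-7k and of the abundant let-7 strands share most of their first bases, and how such reads were assigned is not given in the sources used here. For Mir7j, with the altered seed, the authors' deposited table gives -0.40 (standard error 0.30).

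The miR-125 precursors, which act on neuronal differentiation and share clusters with let-7 genes, made up 5.17%. Mir125a was at -0.66 (standard error 0.32, 95% interval -1.28 to -0.03, unadjusted p = 0.0402) in the authors' deposited table, or 317841 against 500840 normalized counts. Mir125b-1 was at -0.63 (standard error 0.31, unadjusted p = 0.0446) and Mir125b-2 at -0.04 (standard error 0.25). After rescaling to equal sums Mir125b-2 was at 0.16, and neither of the others had an unadjusted p under 0.05 (0.15 and 0.167).

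The miR-183 cluster of sensory cells, transcribed as 1 unit, made up 2.55% of the brain total, 13.5 times the share in kidney. Its 3 precursors had nearly the same log2 fold change in the authors' deposited table. Mir182 was at -0.59 (standard error 0.34), Mir183 at -0.62 (standard error 0.36) and Mir96 at -0.66 (standard error 0.47). The smallest unadjusted p of the cluster was 0.0818. The miR-200 family, which keeps epithelial identity and is known from olfactory tissue, made up 1.82%, and 3.19% in kidney. All 5 members were negative in the authors' deposited table, from -0.56 for Mir200c to -0.27 for Mir429, with standard errors of 0.39 and 0.46. After rescaling, all 8 precursors of both groups kept their sign, with medians of -0.42 and -0.24.

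**Figure D3:**
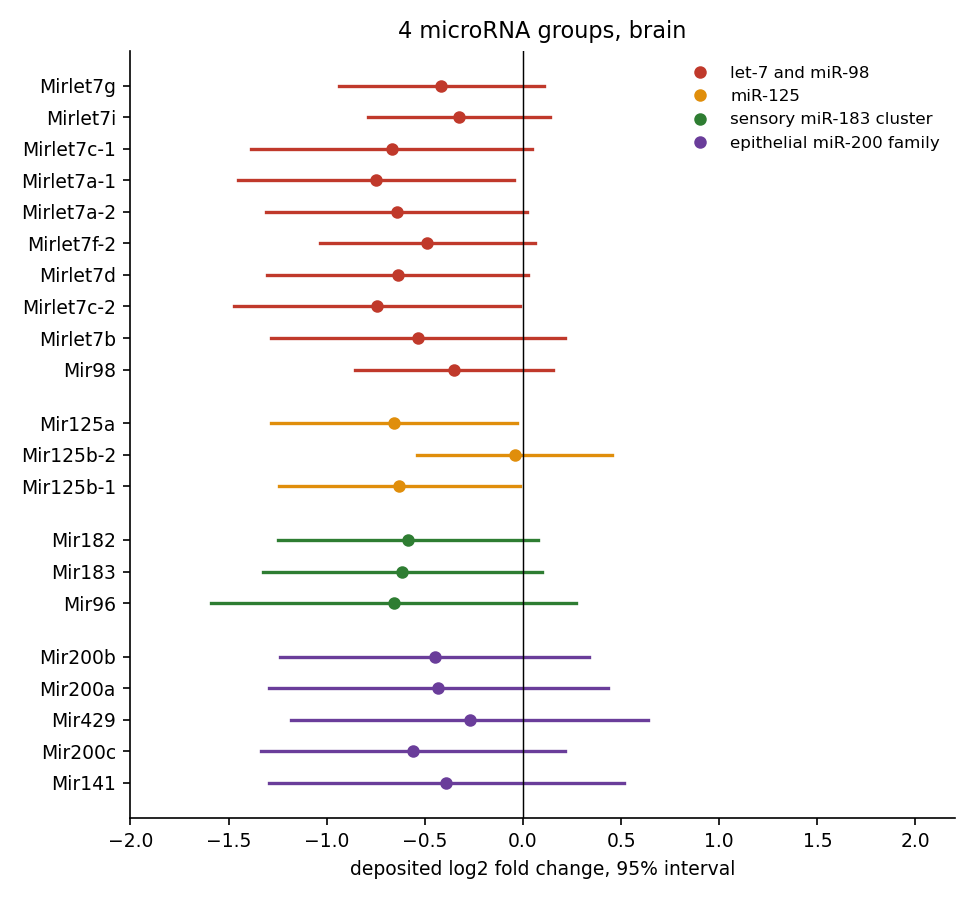
Deposited log2 fold change (points, x axis) with its 95% interval (lines) for the 10 let-7 and miR-98, 3 miR-125, 3 miR-183 cluster and 5 miR-200 precursors, ordered by level within each group. The miR-125, miR-183 and miR-200 groups were chosen for having negative members only, so their points lie below 0 by that choice. The 10 let-7 and miR-98 points lie below 0 too. The intervals of Mirlet7a-1, Mirlet7c-2, Mir125a and Mir125b-1 end below 0.

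Neuron-enriched precursors had no common direction. Of 18, 8 were positive and 10 negative and their median log2 fold change from the authors' deposited table was -0.04, or 0.16 after rescaling to equal sums. None had an unadjusted p under 0.05, and the smallest was 0.0953. Mir9-2 and Mir9-3 were at -0.35 and -0.29 (standard errors 0.26 and 0.24). The lowest of the list was Mir128-2 at -0.70 (standard error 0.42) and the highest Mir129-2 at 0.61 (standard error 0.39). Mir153 followed at 0.48 (standard error 0.40) and Mir129-1 at 0.46 (standard error 0.32). Mir129-1 and Mir129-2 had an unadjusted p under 0.05 after rescaling to equal sums. The copies of miR-124 lay at -0.47, 0.22 and -0.09 (standard errors 0.32, 0.28 and 0.24) for Mir124a-1, Mir124a-2 and Mir124a-3. Of the precursors of synaptic microRNAs, Mir137 was at 0.03 (standard error 0.30). Mir138-1 and Mir138-2, copies of miR-138, were at 0.32 and -0.03 (standard errors 0.32 and 0.25), with their sum at 0.20.

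Precursors that neuronal activity induces, 7 in all, were at a median of -0.16 in the authors' deposited table, with 6 negative and 1 positive, and the median was 0.036 after rescaling to equal sums. Mir485 was the lowest at -0.47 (standard error 0.33) and Mir134, which limits dendritic spine size, the highest at 0.20 (standard error 0.29). Mir219a-2 of oligodendrocytes was at -0.12 (standard error 0.27). Of the vascular precursors, Mir126a of endothelium was at -0.01 (standard error 0.26) and Mir143 at 0.14 (standard error 0.27). The leukocyte and microglia list had 2 positive and 4 negative precursors and a median of -0.08, or 0.12 after rescaling. Its most abundant member, Mir342, was at -0.15 (standard error 0.27). Mir150 and Mir223 were at -0.01 and 0.01 (standard errors 0.26 and 0.33). Mir146 and Mir155, which immune activation induces, were at -0.48 and -0.50 (standard errors 0.35 and 0.42). Mir146b went the other way, as the highest of the list at 0.37 (standard error 0.44). The summed level of the list differed by a log2 of -0.18 under the deposited scaling. As a share of each side's own total it was 0.176% on the positive and 0.175% on the negative side.

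The Dlk1-Dio3 cluster was split over 32 positive and 17 negative precursors, and their median from the authors' deposited table was 0.10. No unadjusted p under 0.05 was found among the 49, the smallest being 0.0994 for Mir496a at -0.48 (standard error 0.29). After rescaling, Mir370 and Mir770 had one. The most abundant precursor of the cluster, Mir434, was at 0.03 (standard error 0.24). Of the 28 neighbours from Mir379 to Mir410 with a mean of at least 100, 16 were positive and 12 negative. Mir544, within the same cluster, had 44, 44 and 50 reads on the positive and 23, 16 and 16 on the negative side. Its normalized counts were 22.9, 36.4 and 68.5 against 20.2, 21.4 and 21.6, so the sides did not overlap, although the lowest positive library lay close to all 3 negative ones. Mir544 was at a deposited log2 fold change of 1.00 (standard error 0.68, unadjusted p = 0.145).

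Of other families found in most tissues, the 5 measured miR-30 precursors were all negative, between -0.13 and -0.03, in the authors' deposited table, and their median was 0.10 after rescaling. The 4 miR-29 precursors, which target collagen genes, were all positive, between 0.05 and 0.20. Of 6 miR-181 precursors 5 were positive with a median of 0.19, and Mir181c was the highest at 0.40 (standard error 0.29). None of these 15 had an unadjusted p under 0.05 as deposited, and Mir181c had one after rescaling.

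Neighbouring precursors were compared as clusters, taken from RefSeq (GRCm38.p6) as hairpins within 10 kb on 1 strand. There were 31 such clusters with at least 2 members of a mean of at least 100, and in 19 all members had 1 sign (11 negative, 8 positive). Most of the 31 had only 2 such members. Over all 318 features of that level, 157 were positive and 161 negative, so pairs of unlinked features would often share a sign. The count of 19 was not tested. Let-7 genes share clusters with members of other families. Mirlet7c-1 was at -0.67 (standard error 0.37), whereas the authors' deposited table has its neighbour Mir99a at -0.09 (standard error 0.23). Mirlet7a-2 was at -0.64 (standard error 0.34) and its neighbour Mir100 at -0.36 (standard error 0.32). Mirlet7d and Mirlet7a-1, both of the family, were at -0.64 and -0.75. Mir132 and Mir212, from 1 primary transcript, were both at -0.04 in the authors' deposited table. The differences between neighbours were not tested, since their values come from the same libraries.

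Precursors that encode an identical mature strand were compared with each other. Of 15 pairs with a RefSeq strand and a joint share above 0.1%, 12 differed by less than 0.25 in log2 fold change, among them Mir9-2 and Mir9-3, and Mirlet7c-1 and Mirlet7c-2. The other 3 differed by more than 0.50. Mirlet7a-1 and Mirlet7c-2, whose 3p strands are identical and which differed by 0.007, were left out of the 15. The let-7a copies Mirlet7a-1 and Mirlet7a-2, at -0.75 and -0.64, are missing too, since the let-7a-5p strand was matched to Mirlet7a-1 only. In the authors' deposited table Mir26a-1 was at 0.28 (standard error 0.28) and Mir26a-2 at -0.57 (standard error 0.36), a difference of 0.85, while their sum was at -0.03. Mir128-1 was at 0.04 (standard error 0.25) and Mir128-2 at -0.70 (standard error 0.42), and their sum at -0.15. The miR-125b copies, Mir125b-1 and Mir125b-2, differed by 0.59, and their sum was at -0.28. The copies of miR-124 have no strand in the RefSeq table and are not among the 15. They lay apart too, with Mir124a-1 at -0.47 and Mir124a-2 at 0.22. A read of the shared strand cannot be placed on 1 copy by its sequence, and the treatment of such reads is not given in the sources used here, so single-copy values are uncertain. These differences between copies were not tested.

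**Figure D4:**
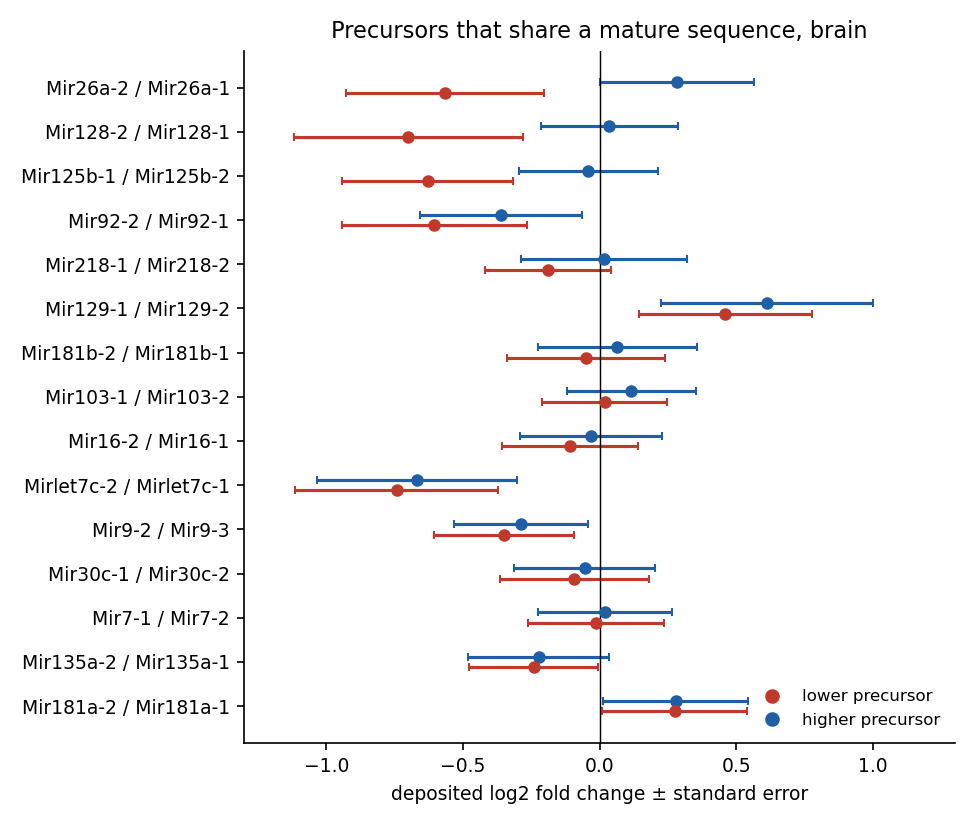
Deposited log2 fold change ± standard error (x axis) for 15 pairs of precursors that share a mature strand, with the lower precursor of each pair in red and the higher in blue, ordered by their difference. In 12 pairs the points differ by less than 0.25, and the pairs of miR-26a, miR-128 and miR-125b at the top differ by more than 0.50.

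For the 717 features with a mean of up to 110, whole reads in each library were recovered from the deposited means. Reads in all 6 libraries were found for 226 features, and 211 features had reads in 1 library only. Of 206 features with a mean of at least 10, 26 (12.6%) had sides that did not overlap, 14 higher on the positive and 12 on the negative side. Libraries sorted at random into sides of 3 would split this way for up to 0.1 of features. With 1 library left out in turn the count was between 37, without the third positive library, and 51, without the third negative one. Random sorting splits fewer libraries this way more often, so the share of 0.1 does not apply to these counts. With a mean of at least 1 the count was 43 of 487 (8.83%).

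Mir3547 had the smallest p of the brain table. Its positive libraries held 446, 164 and 37 reads and its negative ones 56, 35 and 30, or 232, 136 and 50.7 against 49.3, 46.7 and 40.5 normalized counts. One library held 58.1% of the reads, and the third library of the positive side lay just above the negative side. The ratio of the side means was 3.06, falling to 2.05 once the library at 232 was left out. In the authors' deposited table Mir3547 was at 1.62 (standard error 0.54, unadjusted p = 0.00289, adjusted p = 0.989).

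Mir449a, which acts with miR-34 in the making of motile cilia, had 124, 43 and 44 reads on the positive and 28, 10 and 15 on the negative side. These were 64.4, 35.5 and 60.3 against 24.6, 13.4 and 20.3 normalized counts, with no overlap. Its deposited log2 fold change was 1.45 (standard error 0.64, unadjusted p = 0.0225), whereas Mir34c and Mir34b, of the same seed family and far more abundant, were at 0.24 (standard error 0.29) and 0.18 (standard error 0.38). The authors' deposited table has Mir204, the leading precursor of choroid plexus, at 0.01 (standard error 0.31).

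Mir503, of the X-linked cluster around Mir322, had 120, 98.3 and 205 normalized counts on the positive and 75.7, 84.1 and 73.0 on the negative side. The sides did not overlap, and the means differed 1.82-fold, or 1.40-fold without the library at 205. The provisional gene Gm54763 had 36.4, 27.3 and 47.9 normalized counts against 14.1, 9.35 and 10.8, a 3.26-fold difference of the means.

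On the negative side, Mir466p had 14.6, 20.7 and 2.74 normalized counts on the positive and 44.0, 37.4 and 51.3 on the negative side. Mir871 had 5, 8 and 1 reads against 15, 12 and 17, and Mir6986 had 7, 0 and 2 against 17, 14 and 12. In each of these 3 every library of the negative side was above all of the positive side. The unadjusted p of Mir466p was 0.0203 and that of Mir871 0.0418, and the authors' deposited table puts their log2 fold changes at -1.77 (standard error 0.76) and, for the second, at -2.27 (standard error 1.12).

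**Figure D5:**
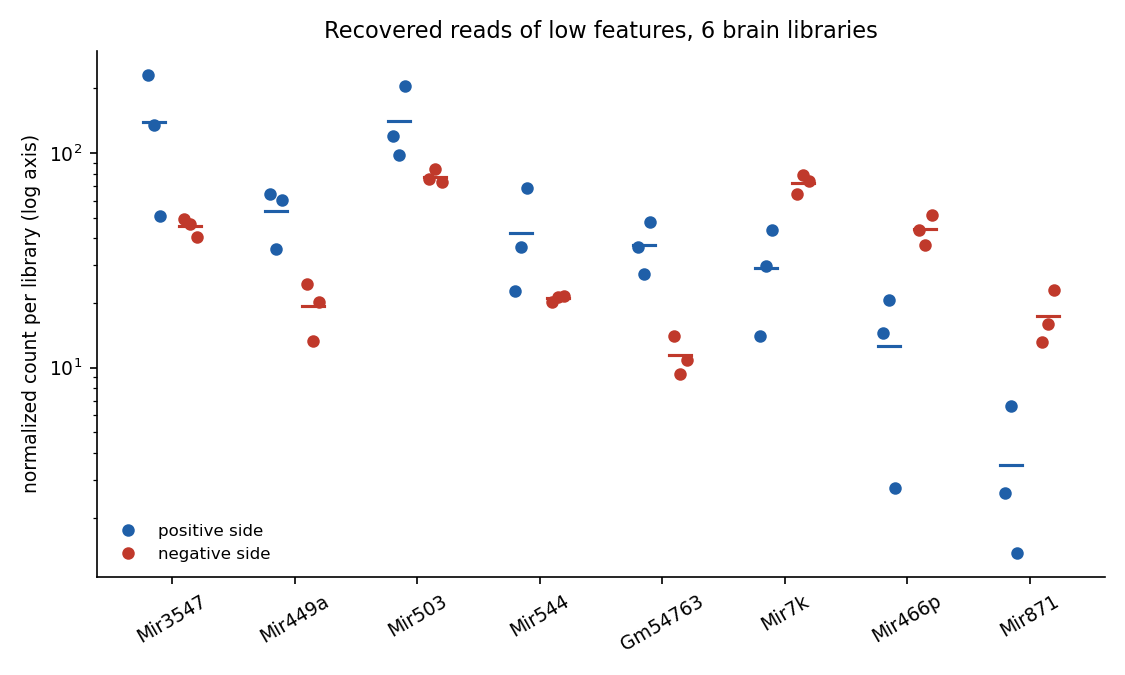
Normalized counts (y axis, log axis) of 8 low features in the 6 brain libraries, positive side in blue and negative side in red, with the mean of each side as a line. The 8 were chosen from features whose sides do not overlap. The third point of Mir3547 on the positive side lies just above the negative side.

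Several of the other unadjusted calls rest on 1 or 2 libraries. All 54 reads of Mir7680 were in 1 library of the positive side, and 21 of the 22 reads of Mir465 in 1 library of the negative side. For Mir7654, 2 positive libraries held 24 and 6 reads and the other 4 libraries none, and for Mir8104 2 positive libraries held 35 and 7. The deposited standard errors of these 4 were between 2.34 and 2.62.

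Among features with a mean of at least 100, the smallest p belonged to Snord43, a guide for methylation of ribosomal RNA, at 0.80 (standard error 0.30, unadjusted p = 0.00765), or 39746 against 22844 normalized counts. Mir326, which lies within an arrestin gene, followed at 0.89 (standard error 0.34, unadjusted p = 0.00889), or 2834 against 1534 in the authors' deposited table. Both had an adjusted p of 0.989, and neither has a value per library.

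The genotype contrast of brain was then set against that of heart, kidney, liver and spleen from the same mice, as the difference of 2 deposited log2 fold changes over their combined standard error. This treats organs as independent and assumes the same numerator in all 5 tables. No feature differed after Benjamini-Hochberg adjustment in any of the 4, with 0 of 883 (0%), 829 (0%), 734 (0%) and 875 (0%) features. Unadjusted z-test p under 0.05 were found for 20 (2.27%), 27 (3.26%), 22 (3%) and 20 (2.29%). Heart, kidney and liver each hold 1 wild-type library of batch 2, which could not be identified in the tables, so no within-batch value could be had.

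The let-7 median of -0.59 in brain compared with -0.65 for heart, -1.31 for kidney, -0.22 for liver and -0.04 for spleen. Of the 10 precursors, 9 had a lower log2 fold change in brain than in liver, 5 than in heart and 3 than in kidney. The log2 fold changes of all 10 were lower in brain than in spleen. Mirlet7c-2 showed the widest gap of the family, with -0.74 in brain and 0.61 in spleen (difference -1.36, standard error 0.45, adjusted p = 1.00). Mir125a was at -0.66 in brain and 0.39 in spleen (difference -1.04, standard error 0.41, adjusted p = 1.00), but at -0.81 in heart, -1.77 in kidney and -0.98 in liver. The miR-125 median of -0.63 in brain stood against -0.52 for heart, -0.93 for kidney, -1.08 for liver and 0.23 for spleen. The smallest p of the comparison with spleen belonged to Mir7j, the precursor of let-7j, at -0.40 in brain and 1.07 in spleen (difference -1.47, standard error 0.46, adjusted p = 1.00). The miR-183 cluster, at -0.62 in brain, had medians between -0.02 and 0.15 in the other organs, where its share was 0.188% or less. The 5 miR-200 precursors had a median log2 fold change of -0.43 in brain and between -0.01 and 0.46 elsewhere. For all 5 the log2 fold change was lower in brain than in each other organ. Like the miR-125 group, the miR-183 and miR-200 groups were shown for their negative values in brain. Lower values there than elsewhere were thus partly set by that choice. The smallest adjusted p of these 2 groups was 0.989 against heart, 0.996 against kidney, 0.999 against liver and 1.00 against spleen.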

How the data were processed

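The brain table lists 2195 rows, of which 1 has no name (3.22e-06% of the total) and was left out. Per the submitters' processing notes, the authors used featureCounts (Subread 2.0.3), the GRCm39 genome and DESeq2. The sources used here name no aligner, annotation or DESeq2 formula, per the labels. The files used here hold no value per library, and 0 such columns were set aside. The deposited mean is a signal, counts divided by size factors and averaged over 6 libraries, per the file headers and the processing notes. Fold changes and standard errors were deposited as log2 values, the Wald statistic as a score, and its p-value raw and adjusted, per the file headers.

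The design had allowed for counts per library. The tables hold a comparison only, so the authors' DESeq2 adjusted p at a threshold of 0.05 was used. Shares are the deposited mean over the summed mean. Side means were computed from the deposited mean and fold change. Intervals are 95% normal intervals. Differences between organs are z-tests.

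Size factors were taken from the smallest means, each worth 1 read. Means up to 110 were split into whole reads at a relative tolerance of 3e-14, and a negative binomial refit of the reads had to give the deposited log2 fold change within 0.0001. All 717 features had 1 solution, with a largest difference of 3.78e-05, and on simulated data 59 of 59 features were recovered. In simulated brain against spleen differences on 875 features, 13 of 200 were recovered at a log2 difference of 1. At a log2 difference of 3 it was 82. Against heart, kidney and liver, 13, 0 and 1 of 200 were recovered at a log2 difference of 1. Counting error and 3 mice per genotype limit the precision.

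The 40 lists hold 308 symbols, of which 277 were matched and 240 had reads. Members and lists were chosen with earlier results of these data known. Named features were the 15 highest means, the 10 smallest p of each sign, 2 abundant and 2 extreme members per list, the markers, and the smallest p per abundance class and organ difference. Mirlet7i, Mir98, Mir7j, Mir1961 and the other members named to fill a family, a cluster or a pair of copies were chosen after their values were seen. Mature strands came from RefSeq on GRCm38.p6, matched by symbol for 732 measured features. That build differs from the files' build, so it gave names, strands and neighbours but no coordinates. Tools were Python 3.11.15, pandas 2.3.3 and scipy 1.17.1. Alternatives covered filters on low values, scaling, copies, weighting, denominators and libraries left out.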

Additional observations from a re-analysis of the deposited data

How the results depend on the processing

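The count of features past the adjusted threshold stayed at 0 in brain and in all 4 organ differences under every filter and scaling tried. Under the filters, the smallest adjusted p in brain (DESeq2 p-values, Benjamini-Hochberg adjustment) was at least 0.987. After a change of scaling, p was recomputed as a normal p of the shifted fold change over its deposited standard error. The smallest adjusted p was then 0.46 after rescaling to equal summed levels. It was 0.987 after centring on the median of features with a mean of at least 100. In the organ differences (z-tests) it was at least 0.132. Unadjusted calls numbered 23, and 14 with a mean of at least 10, 7 with a mean of at least 100, 21 over microRNA names alone and 34 after rescaling, where 85.3% were positive against 52.2%. The rescalings of p-values and the libraries left out in turn were chosen after seeing the data.

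Of 96 alternatives to the list medians 89 kept the sign and moved by less than the median standard error. The other 7 came from rescaling to equal sums, which turned medians positive: neuron-enriched 0.16, neuronal activity 0.036, oligodendrocyte 0.079, leukocyte and microglia 0.12, miR-99 and miR-100 0.047, miR-30 0.10 and miR-26 0.0099. Since rescaling moves every feature by the same amount, these changes of sign are not changes relative to other features. The let-7 median ran from -0.59 to -0.39.

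The count of 26 low features whose sides did not overlap ran from 37 to 51 with 1 library left out, since fewer libraries overlap less. Mir3547 fell from a log2 ratio of 1.61 to 1.03 without its highest library. No paired analysis was possible because the table gives no values that can be tied to single mice, so the 2 sets of brothers, which both span the genotypes, could not be accounted for. For abundant features no library could be left out.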
